A study of Mus musculus with 104 samples.

Results

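The genes studied were Adar, Adarb1 and Adarb2, which encode the mammalian adenosine deaminases that act on RNA (ADAR family). They were taken by symbol from the deposited RefSeq gene counts, 3 of 24060 genes, and all 3 were among the 15723 genes that passed the filter on low counts. The genes and the lines shown in detail were chosen by their measured counts, since Adar counts had been seen to be lower in mice of the Tbc1d8 and Gsg1l lines, and in part of the Dach1 line, so the levels by line are given as a description without a test. RNA came from the cerebral cortex of 52 female and 52 male C57BL/6 mice at an age of 6 months, all labelled wild type. There were 13 lines, each named after a gene and each with 4 mice of either sex. In rising order of their mean Adar level they were Tbc1d8, Gsg1l, Dach1, Rasgef1a, Hrk, Pcdh20, Morf4l1, Ece2, Rgs9, Zswim6, Kdm3b, Ppp1ca and Arpp19. The labels tag the lines as batches and name no substrain, so line, batch and genetic background cannot be told apart. The labels do not say which mice were litter mates.

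ADAR enzymes convert adenosine to inosine in double-stranded RNA, and inosine is read as guanosine by the ribosome. Adar encodes ADAR1, which edits repeat-derived duplexes in many tissues, keeps self RNA from being sensed as foreign by MDA5, and has several promoters, one of them inducible by interferon. Adarb1 encodes ADAR2, which in the brain edits the glutamine codon of the AMPA receptor subunit GluA2 and other recoding sites. Adarb2 encodes ADAR3, which binds double-stranded RNA, has no known deaminase activity, is found mainly in the brain, and is a known marker of cortical interneurons from the caudal ganglionic eminence. Gene counts do not separate transcripts from different promoters or with different exons, and they give no editing level.

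The 3 genes lie on different chromosomes of the RefSeq annotation of GRCm38.p6. Adar spans chr3:89714469-89753455 on the plus strand, Adarb1 spans chr10:77290727-77418292 on the minus strand and Adarb2 spans chr13:8202526-8768762 on the plus strand. RefSeq lists 3 start sites for Adar and 1 each for Adarb1 and Adarb2 in the promoter set used. The 150 bases before Adar starts 1 and 3 and before the Adarb1 and Adarb2 starts are shown. They are written 5′ to 3′ on the gene's strand, with coordinates of the same build. The stretches of Adar and Adarb2 lie inside the annotated gene spans, which begin before the listed starts. The bases before Adar start 2 are not printed.
Adar start 1, chr3:89714872-89715021, plus strand: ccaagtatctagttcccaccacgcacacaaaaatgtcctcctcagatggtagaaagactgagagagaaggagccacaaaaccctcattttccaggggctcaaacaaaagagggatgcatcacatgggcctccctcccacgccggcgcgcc
Adar start 3, chr3:89730568-89730717, plus strand: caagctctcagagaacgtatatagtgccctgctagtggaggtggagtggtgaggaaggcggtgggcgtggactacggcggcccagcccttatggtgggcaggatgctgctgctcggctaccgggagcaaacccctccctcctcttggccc
Adarb1, chr10:77418274-77418423, minus strand: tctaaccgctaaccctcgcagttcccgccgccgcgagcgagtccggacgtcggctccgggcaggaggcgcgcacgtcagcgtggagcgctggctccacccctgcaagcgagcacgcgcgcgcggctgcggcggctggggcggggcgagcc
Adarb2, chr13:8202716-8202865, plus strand: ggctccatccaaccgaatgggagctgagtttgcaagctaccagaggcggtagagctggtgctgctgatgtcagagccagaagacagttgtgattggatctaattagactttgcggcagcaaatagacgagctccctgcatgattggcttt
GC content over the 250 bases before the start was 72% for Adarb1, 52.8% for Adarb2 and 50%, 66.8% and 56.4% for the 3 Adar starts, against a median of 52.4% over all promoters. Promoters of 300 bases (250 before to 50 after each start) were searched on both strands for 3 motifs. The interferon-stimulated response element core (GAAA, any 2 bases, GAAA) was in 3.44% of 32851 promoters, the ATF4 composite element TGATGNAA in 3.97% and the palindromic cyclic AMP response element TGACGTCA in 1.79%, and none of them matched in any of the 5 promoters of these genes. The shorter interferon regulatory factor core AANNGAAA, searched after the sequences had been seen, was in 23.9% of promoters and matched once here, just after Adar start 3. That match is in capitals in the next line, which gives the 30 bases around it.
Adar start 3, chr3:89730737-89730766, plus strand: cttttcaaggAAACGAAAgtgaactctggg
A match of letters is a description of the sequence, and binding there was not measured.

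Reads assigned to genes came to between 3.39 and 33.5 M per library, with a median of 28.4 M, and the library with the fewest was Kdm3b female replicate 22. Between 1070 and 10711 of these reads fell on Adar, between 1052 and 10927 on Adarb1 and between 82 and 801 on Adarb2, so Adarb2 was measured with the largest counting error. No pair of libraries of the same line and sex differed by as little as sampling noise (smallest chi-square per degree of freedom 2.55). In 3 libraries the sex-linked transcripts went against the sex label. Rasgef1a male 40 had 32425 reads of the female transcript Xist and 0 of Y-linked genes. Rgs9 female 43 had 3 of Xist and 4479 of Y-linked genes. Rasgef1a female 39 had 2 of Xist but also 0 of Y-linked genes, so only its lack of Xist went against the label. Excitatory cortical neuron markers were high in all groups, with Slc17a7 at a mean of 1422 CPM (counts scaled to equal library totals), as the label cerebral cortex states.

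Compared per length, Adar and Adarb1 were present at similar levels and Adarb2 at a much lower one. The deposited RefSeq FPKM (fragments corrected for gene length and depth) averaged 49.1 ± 3.57 for Adar, 47.7 ± 1.92 for Adarb1 and 2.71 ± 0.287 for Adarb2 (SD, n = 52 females and 52 males). Adarb2 was the lowest of the 3 in every library, with a median ratio of Adarb1 to Adarb2 of 17.2. The order of the other 2 depended on the gene models. Adar exceeded Adarb1 in 73 libraries and Adarb1 exceeded Adar in 31 in the RefSeq FPKM, against 103 and 1 in the Ensembl FPKM, where the means were 33.6 for Adar, 26.7 for Adarb1 and 2.07 for Adarb2. In the RefSeq FPKM, Adar exceeded Adarb1 in 0 of 8 Tbc1d8, 1 of 8 Gsg1l and 4 of 8 Dach1 libraries. The median ratio of Adar to Adarb1 was 0.871 in the Tbc1d8 line and 1.05 over all libraries.

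Adar levels (CPM, from counts with TMM scaling of library totals) were alike in 10 of the lines. They were lower in the Tbc1d8 and Gsg1l lines and in part of the Dach1 mice. Over the 80 libraries of the 10 lines other than Tbc1d8, Gsg1l and Dach1, Adar averaged 306.2 ± 8.92 CPM (SD, n = 80) and ran from 287.3 to 325.8. The means of these 10 lines lay between 300.3 ± 6.93 in Rasgef1a and 311.1 ± 11.5 in Arpp19 (SD, n = 8 each), and no neighbours in that order differed by more than their SD. In the Tbc1d8 line, the lowest, the median and the highest of the 8 libraries were 240.4, 247.9 and 257.2 CPM. All 8 Tbc1d8 libraries were thus below all 80 of the 10 lines. The same separation was found for 32 of 15723 genes (0.204%), and a separation in either direction for 40 (0.254%), and since the line was chosen for Adar nothing is read from that count. The Tbc1d8 mean was 247.9 ± 5.19 CPM, a fitted log2 difference of -0.28 ± 0.02 (SE) from the mean of the other 12 lines, and of -0.30 ± 0.02 (-19.0%) from the 10 lines.

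In the Gsg1l line, the lowest, the median and the highest Adar value were 245.7, 254.0 and 294.8 CPM, with a mean of 258.9 ± 15.95 (SD, n = 8). Of its 8 libraries, 7 lay between 245.7 and 267.4 CPM, below the whole range of the 10 lines, and 1, female replicate 14, lay inside that range at 294.8 CPM. The fitted log2 difference was -0.21 ± 0.02 from the other 12 lines and -0.24 ± 0.02 from the 10 lines. Without female replicate 14 the mean was 253.8 ± 7.23 CPM (SD, n = 7) and the log2 difference from the other 12 lines was -0.24. That library also stood apart from its line in a pair of genes known to carry variants in C57BL/6J, Nnt (a mitochondrial transhydrogenase) and Gabra2 (a GABA-A receptor subunit). It had 23.4 CPM of Nnt and 26.003 CPM of Gabra2, both inside the ranges of the 10 lines (18.3 to 27.4 and 25.4 to 41.7 CPM). The other 7 Gsg1l libraries had 30.7 to 35.3 CPM of Nnt and 45.5 to 58.3 CPM of Gabra2.

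Adar in the Dach1 line was spread over a wider range than in the other 12 lines, 249.8 to 311.2 CPM with a mean of 288.3 ± 23.9 (SD, n = 8). Female replicate 5 had 249.8 CPM, female replicate 7 had 258.5 and male replicate 7 had 274.7, all below the range of the 10 lines. The other 5 libraries had 304.0 (female 6), 311.2 (female 8), 296.1 (male 5), 307.4 (male 6) and 304.3 CPM (male 8), all inside it. The fitted log2 difference of the whole line was -0.04 ± 0.02 from the other 12 lines and -0.09 ± 0.02 from the 10 lines. Female 5 and male 7 were sequenced on plate 2, and female 7, with 258.5 CPM, on plate 1. Within plate 1 alone the log2 difference of Dach1 from the other 12 lines was 0.0006. Those 12 lines include Tbc1d8 and Gsg1l, whose Adar was low, and a plate 1 difference from the 10 lines was not taken. The 3 plate 2 libraries of the 10 lines had 300.1 (Arpp19 male 4), 305.8 (Morf4l1 female 25) and 308.0 CPM (Rgs9 female 44), inside the range of the plate 1 libraries. Nnt lay between 19.3 and 22.6 CPM in all 8 Dach1 libraries, inside the range of the 10 lines. Gabra2 differed among the Dach1 mice but did not sort them as Adar did. It was 33.5 CPM in female 5, 49.4 in female 7 and 54.7 in male 7, the 3 mice with low Adar, and 32.9 to 49.1 CPM in the other 5.

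**Figure D1:**
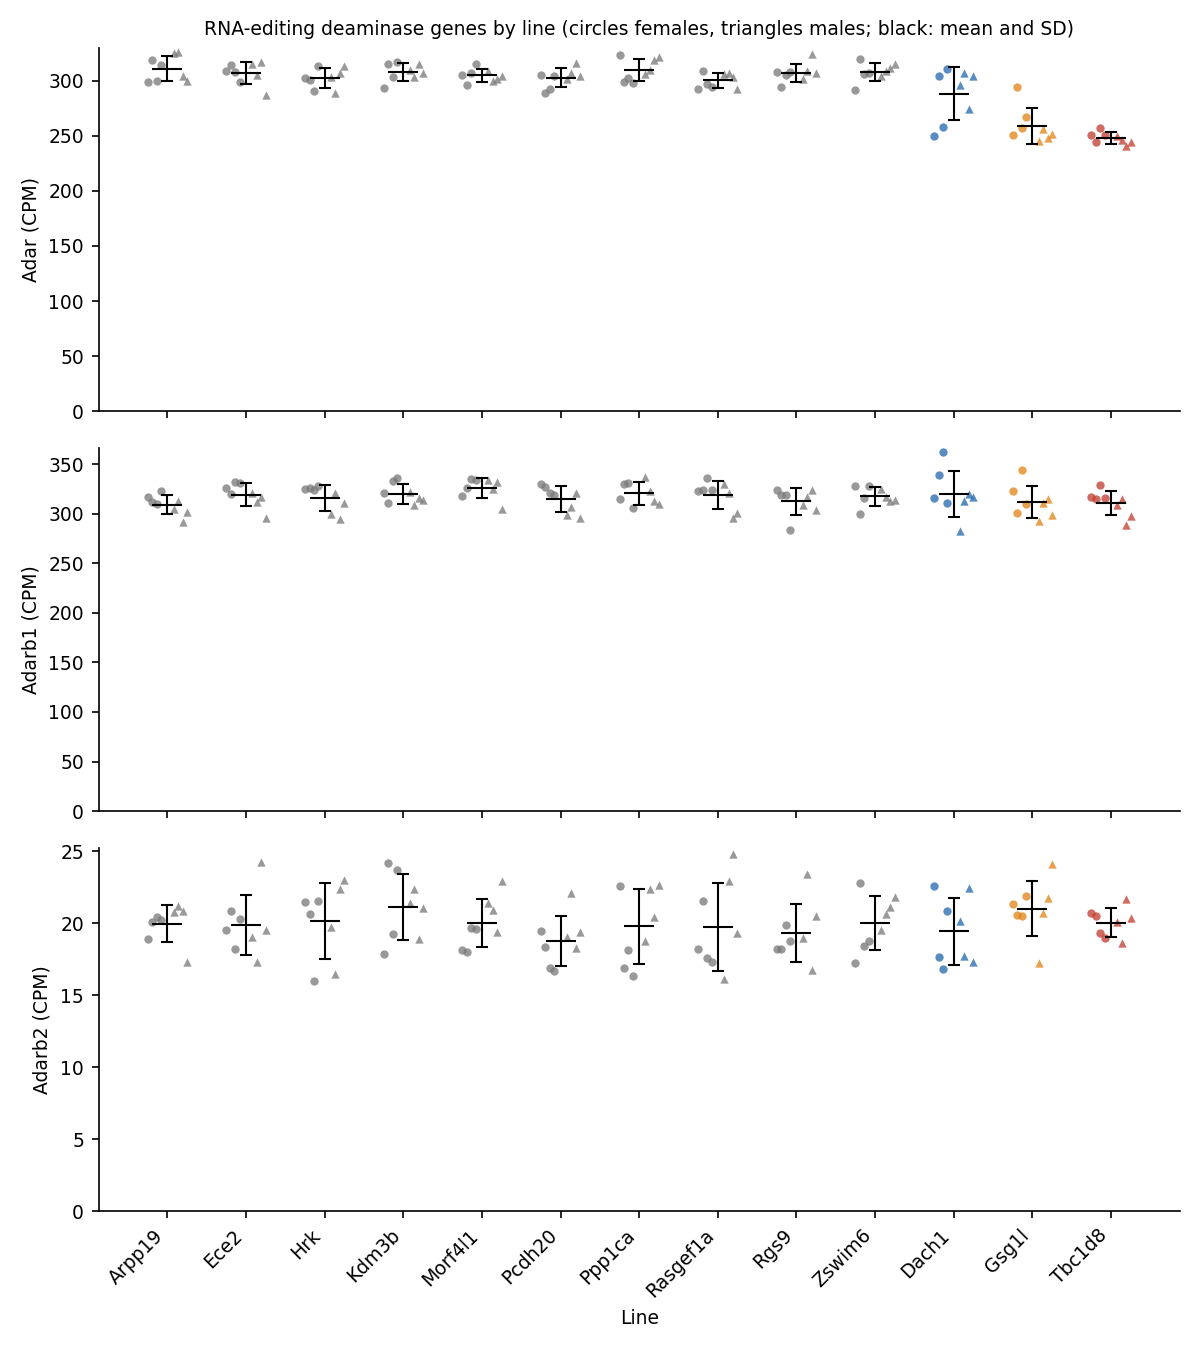
Adar, Adarb1 and Adarb2 levels (vertical axes, CPM from 0) in each library by line, with females as circles, males as triangles and black bars for the mean and SD of 8 libraries. Adar was lowest in Tbc1d8 (red, 240.4 to 257.2 CPM) and Gsg1l (orange) and spread from 249.8 to 311.2 CPM in Dach1 (blue), while Adarb1 and Adarb2 ranges overlapped between all lines.

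In the order of the 13 lines, Tbc1d8 and Gsg1l were lowest and did not differ beyond the Gsg1l SD, and Dach1 and Rasgef1a, the next 2, did not differ beyond the Dach1 SD. Gsg1l and Dach1 differed by more than the SD of either, but their ranges overlapped. Line accounted for 78.7% of the variance of log2 Adar CPM, which restates the pattern for which the gene was chosen. Marker scores of oligodendrocytes, striatal neurons, erythroid cells and choroid plexus were taken as covariates. The erythroid score held only 1 tested gene, Alas2 at a mean of 0.893 CPM, and the choroid plexus score 3 genes. The log2 differences were then -0.27 in Tbc1d8, -0.20 in Gsg1l and -0.04 in Dach1. Adar in the Ensembl counts gave -0.27, -0.21 and -0.04.

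Adarb1 did not share this pattern. Its lowest, median and highest values were 288.3, 315.0 and 328.6 CPM in Tbc1d8, 292.4, 310.4 and 343.8 in Gsg1l, and 282.7, 316.4 and 362.4 in Dach1, and the 80 libraries of the 10 lines ran from 283.7 to 336.9. All 3 ranges overlapped that of the 10 lines. Line means lay between 309.0 ± 9.61 CPM (Arpp19) and 326.0 ± 10.2 CPM (Morf4l1), with no neighbours apart by more than their SD. The log2 differences from the other 12 lines were -0.03 ± 0.02 in Tbc1d8, -0.02 ± 0.02 in Gsg1l and 0.02 ± 0.02 in Dach1 (SE). Line accounted for 11.9% of the variance of log2 Adarb1 CPM. Dach1 had the lowest and the highest Adarb1 library of the 13 lines, in male 5 (282.7 CPM, Adar 296.1) and female 7 (362.4 CPM, Adar 258.5).

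Adarb2 ranged from 18.6 to 21.7 CPM in Tbc1d8, with a median of 20.3, from 17.2 to 24.2 in Gsg1l, with a median of 21.03, and from 16.8 to 22.6 in Dach1, with a median of 18.9. The 10 lines ran from 15.99 to 24.8 CPM, and every Adarb2 library of the 3 lines fell inside that range. Line means lay between 18.8 ± 1.71 (Pcdh20) and 21.1 ± 2.29 CPM (Kdm3b), and line accounted for 8.47% of the variance of log2 Adarb2 CPM. The log2 differences were 0.01 ± 0.05 in Tbc1d8, 0.08 ± 0.05 in Gsg1l and -0.04 ± 0.05 in Dach1. Over the 13 line means, Pearson's r was 0.44 between Adar and Adarb1, -0.30 between Adar and Adarb2 and -0.02 between Adarb1 and Adarb2. These are descriptions over lines chosen for Adar.

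The genes whose line means were most like those of Adar lay on other chromosomes. Likeness was Pearson's r over 13 line means, among the 10430 tested genes whose log2 CPM averaged 3 or more. The 5 highest were Asns (asparagine synthetase, r = 0.99), Slc7a3 (a cationic amino acid transporter, 0.99), Ncl (the nucleolar protein nucleolin, 0.99), Tspyl4 (a member of the nucleosome assembly protein family, 0.98) and Fbxw11 (an F-box protein of a ubiquitin ligase, 0.98). The 3 lowest were R3hdm4, Maz (a zinc finger transcription factor) and Evl (an actin regulator of the Ena/VASP family), each at r = -0.98. All 13 lines entered these values, Tbc1d8, Gsg1l and Dach1 included. Over the 80 libraries of the 10 lines, with line and sex means removed, r with Adar was -0.03 for Asns, -0.07 for Slc7a3, 0.04 for Ncl, 0.31 for Tspyl4, 0.02 for Fbxw11, -0.25 for R3hdm4, -0.13 for Maz and -0.07 for Evl. With line and sex means removed over all libraries, the 5 genes that moved most closely with Adar were Tspyl4 (r = 0.61), Mfn2 (a mitochondrial fusion protein, 0.56), Epm2aip1 (0.54), Slc7a3 (0.52) and Rprd2 (0.51), the last on the same chromosome as Adar (chr3:95759871-95819744). These values include the mice of Dach1 and Gsg1l among which Adar fell into separate levels. Over the 80 libraries of the 10 lines, r with Adar was 0.27 for Mfn2, 0.24 for Epm2aip1 and 0.41 for Rprd2.

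The same genes, whose likeness rests in part on these libraries, sorted the Dach1 mice as Adar did. Asns (chr6:7675165-7693209) was 86.5 CPM in female 5, 91.7 in female 7 and 87.3 in male 7, below the 98.7 to 130.7 CPM of the 10 lines, and 102.5 to 116.3 CPM in the other 5 Dach1 mice. Tspyl4 was 651, 673 and 664 CPM in those 3 mice, below the 702 to 807 CPM of the 10 lines, and 754 to 791 CPM in the other 5. Slc7a3 was 4.03, 4.76 and 4.03 CPM in the 3, against 9.30 to 11.6 CPM in the other 5. The 3 Dach1 mice with low Adar were also low in these genes, and did not overlap the other 5. The genes were picked for their likeness to Adar, and the share of all genes with such a separation was not counted. Nothing is therefore read from it. Atf4, a transcription factor of the amino acid response, was picked after its values were seen. It was 108.2, 111.9 and 114.3 CPM in the 3 and 143.7 to 168.3 CPM in the other 5. The 10 lines ran from 125.5 to 187.0 CPM of Atf4. Gsg1l male 13, with Adar at 245.7 CPM, lay inside that range at 127.1 CPM. The other Gsg1l mice with low Adar had 105.8 to 119.4 CPM of Atf4. Gsg1l female 14, with Adar at 294.8 CPM, had 115.2 CPM of Asns and 739.6 CPM of Tspyl4, inside the ranges of the 10 lines. Whether Adar and these genes share a source of variation was not tested.

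**Figure D2:**
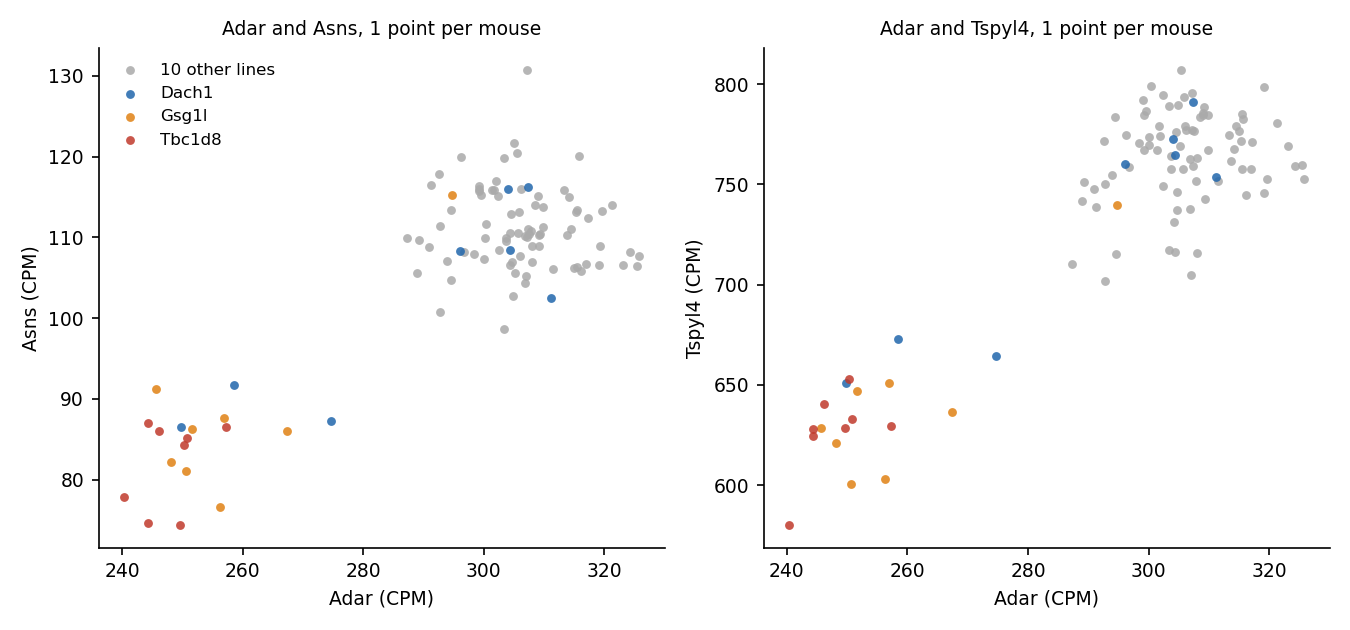
Adar (horizontal axis, CPM) against Asns (left) and Tspyl4 (right, both CPM on axes that do not start at 0), 1 point per mouse, for the 10 other lines in grey and Dach1, Gsg1l and Tbc1d8 in colour. The 8 Tbc1d8, 7 of 8 Gsg1l and 3 of 8 Dach1 mice lie at the lower left, apart from the 80 grey points.

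Adarb1 and Adarb2 had other companions. The line means most like those of Adarb1 were those of Hdac4 (a class IIa histone deacetylase, r = 0.92), Scrt1 (a neural transcription factor, 0.89), Mcf2 (0.89), Mroh1 (0.88) and Cbwd1 (0.87), and the least like were Dusp18 (-0.92), Pgrmc1 (-0.91) and Prr7 (-0.90). With line and sex means removed, Adarb1 moved most closely over all libraries with Lynx1 (a modulator of nicotinic receptors, r = 0.76), Cntn2 (an axonal adhesion protein, 0.73), Slc45a4 (0.73), Cntnap1 (a paranodal protein of myelinated axons, 0.72) and Klc2 (a kinesin light chain, 0.70). For Adarb2 the highest over line means were Fam13a (0.86), Sgcb (0.85), Pebp1 (0.84), Fbxl20 (0.82) and Stx17 (0.82), and the lowest Cacng3 (-0.94), Plrg1 (-0.89) and Prkar2a (-0.86). Within lines Adarb2 was most like Pcdh19 (a protocadherin, r = 0.74), Rasgrf2 (a Ras exchange factor, 0.71), Zkscan16 (0.70), Slc24a4 (a sodium, calcium and potassium exchanger, 0.69) and Nyap2 (0.69). Over the 80 libraries of the 10 lines, r was 0.81 between Adarb1 and Lynx1 and 0.73 between Adarb2 and Pcdh19. All of these libraries share their dissection and scaling, so the values describe the data set.

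Females and males differed in Adarb1, which the choice of genes had not used. Adarb1 ran from 283.7 to 362.4 CPM in the 52 females, with a median of 323.3, and from 282.7 to 336.9 CPM in the 52 males, with a median of 312.8. The ranges overlapped, and the means were 322.4 ± 12.1 and 310.9 ± 12.1 CPM (SD, n = 52 each). The difference was 0.05 ± 0.01 on the log2 scale (SE, a level 3.72% higher in females) and passed edgeR's quasi-likelihood test with line as a term (Benjamini-Hochberg adjusted p = 0.000368). Over all genes 8.57% were called in that comparison, 4.07% higher and 4.5% lower in females. Adarb1 was higher in females in 11 of 13 lines, the exceptions being Rgs9 and Ppp1ca, with line differences of -0.01 to 0.11 on the log2 scale. Without the 3 libraries whose sex-linked transcripts went against their labels, it was 0.05 ± 0.01 (adjusted p = 0.000868 in edgeR's test). Sex accounted for 18.6% of the variance of log2 Adarb1 CPM.

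Adar and Adarb2 did not pass that test. Adar was 295.5 ± 20.9 CPM in females and 297.9 ± 23.4 CPM in males (log2 difference -0.01 ± 0.01, adjusted p = 0.653 in edgeR's quasi-likelihood test). Adarb2 was 19.5 ± 1.93 CPM in females and 20.4 ± 2.11 CPM in males (-0.07 ± 0.03, adjusted p = 0.0916), lower in females in 10 of 13 lines. None of the 3 genes had a sex difference that differed between lines by edgeR's test of 12 interaction terms (F = 1.09 for Adar, 0.93 for Adarb1 and 0.47 for Adarb2, adjusted p = 0.9997 each), in which 0.0382% of all genes were called. Markers of several cell types moved with sex as well. The oligodendrocyte score (mean log2 CPM of 5 markers) was 7.52 (6.92 to 7.82) in females and 7.46 (7.17 to 7.74) in males, and Mog, a myelin protein gene, was higher in females by 0.10 on the log2 scale. Slc17a7, an excitatory neuron marker, was lower in females (log2 difference -0.05), as was Htr3a, a marker of interneurons from the caudal ganglionic eminence (-0.18). With the 4 tissue scores named above as covariates, the Adarb1 sex difference was 0.04 on the log2 scale, with an adjusted p of 0.0103 in edgeR's test.

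**Figure D3:**
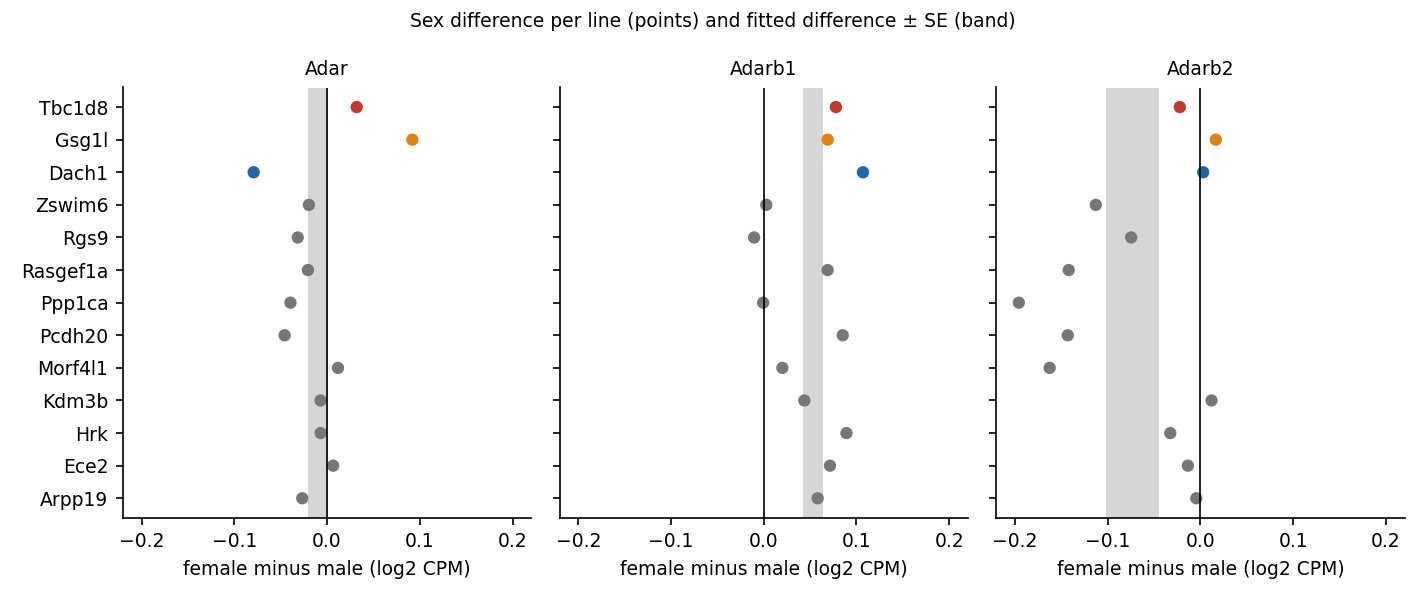
Female minus male difference (horizontal axis, log2 CPM) of Adar, Adarb1 and Adarb2 in each of the 13 lines (points, 4 females and 4 males per line), with the fitted difference ± SE as a grey band and a black line at 0. Adarb1 lies above 0 in 11 of 13 lines, Adarb2 below 0 in 10, and Adar on both sides.

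Within lines, Adarb1 rose and Adarb2 fell with the oligodendrocyte marker score from mouse to mouse. Each member's log2 CPM and each marker score (mean log2 CPM of the list) had line and sex means removed, and 45 relations over all 13 lines (n = 52 females and 52 males) were tested by two-sided permutation within line and sex (100000 draws, Benjamini-Hochberg adjustment over the 45). By Pearson's r, 4 of 45 passed. In bulk tissue, fewer cells of a type and less RNA per cell cannot be told apart. Adarb1 rose with the oligodendrocyte score (r = 0.41, permutation p = 0.00154, adjusted 0.0173; Spearman's rho = 0.45, p = 9e-05, adjusted 0.00135). Without the 2 libraries farthest from the median score, r was 0.45. Adarb1 also rose with the score of excitatory neuron markers (r = 0.39, permutation p = 0.00022, adjusted 0.0033; rho = 0.35, p = 0.00145, adjusted 0.0163), with r = 0.35 without the 2 farthest libraries.

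Adarb2 fell as the score of interneurons from the medial ganglionic eminence rose (6 markers, among them Pvalb and Sst). Pearson's r was -0.49 (permutation p = 1e-05, the smallest that the draws can give, adjusted 0.00045) and rho was -0.49 (p = 2e-05, adjusted 0.0009). Without the 2 farthest libraries r was -0.46, and over the 80 libraries of the 10 lines it was -0.44. Adarb2 also fell as the oligodendrocyte score rose (r = -0.44, permutation p = 3e-05, adjusted 0.000675; rho = -0.45, p = 4e-05, adjusted 0.0009), with r = -0.42 without the 2 farthest. With its own cell type, interneurons from the caudal ganglionic eminence (9 markers, among them Vip and Lamp5), the relation passed by rank but not by Pearson's r (r = 0.26, permutation p = 0.0401, adjusted 0.169; rho = 0.33, p = 0.00261, adjusted 0.0235). Pearson's r was lowered by 1 library. Without Kdm3b female 22, the library with the fewest reads, it was 0.42 and passed, with an adjusted permutation p of 0.00112. Over the 80 libraries of the 10 lines, Kdm3b female 22 included, Pearson's r was 0.21.

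No pair of the 3 genes passed that test over all libraries. Adarb1 and Adarb2 gave r = -0.31 (permutation p = 0.0106, adjusted 0.0683; rho = -0.29, adjusted 0.0729), with r = -0.27 without the 2 farthest libraries. Adar and Adarb1 gave r = -0.09 (adjusted permutation p = 0.825; rho = 0.03, adjusted 0.980). Because Adar fell into separate levels within the Dach1 and Gsg1l lines, its relations were also taken within the 80 libraries of the 10 lines, an alternative added after the data had been seen. There Adar and Adarb2 gave r = 0.50 (adjusted permutation p = 0.006), against 0.22 over all libraries (adjusted permutation p = 0.208; rho = 0.31, adjusted 0.0649), and Adar and Adarb1 gave r = 0.06. Adar and the score of genes for sensing double-stranded RNA and responding to interferon gave r = -0.11 over all libraries (adjusted permutation p = 0.651) and -0.19 in the 10 lines. The 41 relations that did not pass had r between -0.31 and 0.26.

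**Figure D4:**
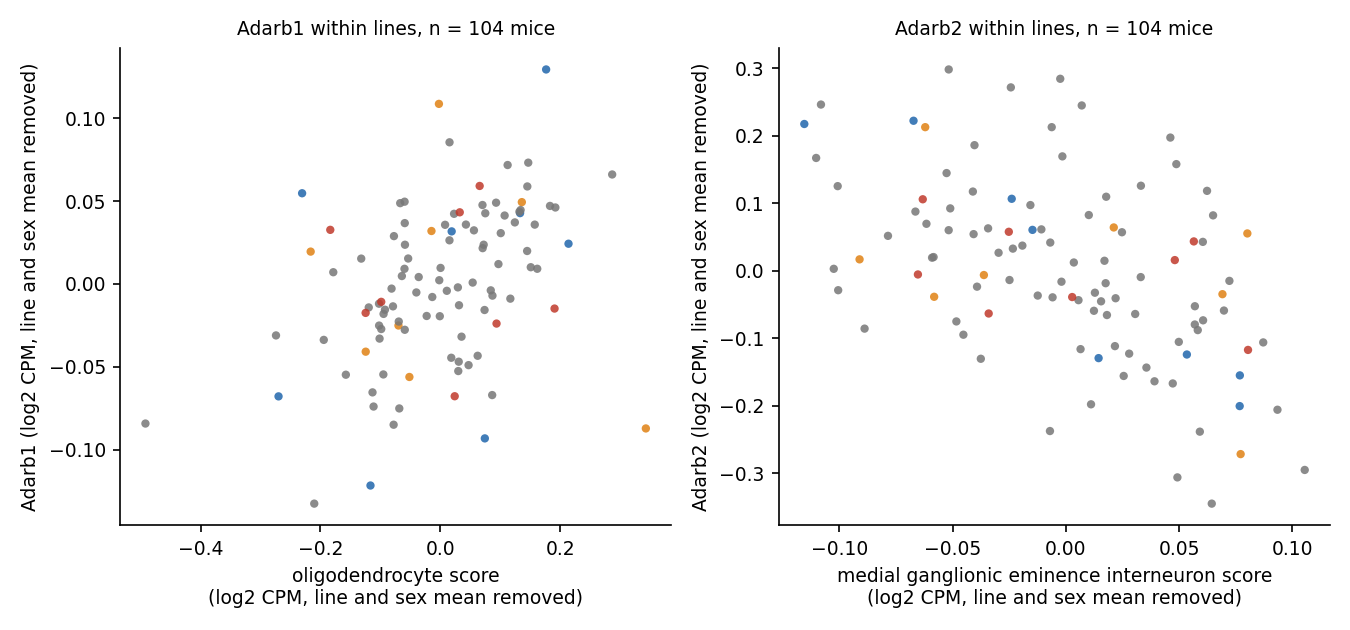
Adarb1 against the oligodendrocyte score (left) and Adarb2 against the score of interneurons from the medial ganglionic eminence (right), all in log2 CPM with line and sex means removed, 1 point per mouse (Dach1 blue, Gsg1l orange, Tbc1d8 red, the other 10 lines grey). Adarb1 rises to the right (r = 0.41) and Adarb2 falls (r = -0.49), with wide scatter.

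Among other genes of the editing pathway, the share called in either direction in the lines with lower Adar lay near that of all genes. By direction the calls were uneven, and all 8 in Gsg1l were lower. Of 79 genes in 4 lists (relatives of the enzymes, ADAR cofactors and inosine handling, recoding substrates, double-stranded RNA sensing and interferon response), 73 were tested, and the rest, Adad1 and Zbp1 among them, had too few reads. Against the mean of the other 12 lines, edgeR's quasi-likelihood test called 1 higher and 6 lower of 73 in Tbc1d8, where 12.4% of all genes were called (5.66% higher, 6.79% lower). It called 0 higher and 8 lower in Gsg1l, where 10.4% of all genes were called (4.86% higher, 5.58% lower), and 0 in Dach1, where 0.165% were called (0.0636% higher, 0.102% lower). The median log2 difference of the 73 genes in Tbc1d8 was -0.01, against 0.005 over all tested genes. The comparisons of the 3 lines share the other 10 lines as controls, so they are not independent of each other.

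Among the 7 tested enzyme relatives, which include the tRNA deaminases Adat1, Adat2 and Adat3, none was called in Tbc1d8 or Gsg1l. Of the 24 cofactors, 2 were lower in Tbc1d8, namely Nono (a paraspeckle protein, log2 difference -0.08 ± 0.02, adjusted p = 0.00132) and Ilf2 (-0.07 ± 0.02, adjusted p = 0.041). In Gsg1l 3 were lower, Dhx9 (an RNA helicase that interacts with ADAR1, -0.09 ± 0.02, adjusted p = 6e-05), the helicase Ddx15 (-0.11 ± 0.03, adjusted p = 0.00919) and Nono (-0.06, adjusted p = 0.030). Of the 25 recoding substrates, Kcna1, a potassium channel that ADAR2 recodes, was lower in Tbc1d8 (-0.26 ± 0.05, adjusted p = 9.4e-05) and in Gsg1l (-0.22 ± 0.05, adjusted p = 0.00123). Cadps, a protein of vesicle priming, was lower in both (-0.10 ± 0.03 and -0.09). Grik1, a kainate receptor subunit, was higher in Tbc1d8 (0.20 ± 0.06, adjusted p = 0.0075), and Azin1, the antizyme inhibitor, was lower in Gsg1l (-0.10 ± 0.02, adjusted p = 0.000168). Ube2o was also lower in Tbc1d8 (-0.06 ± 0.02) and Copa in Gsg1l (-0.04). Of the 17 tested genes of the sensing list, 1 was called, Ifih1, which encodes the sensor MDA5. It was lower in Tbc1d8 (-0.17 ± 0.05, adjusted p = 0.0144) and in Gsg1l (-0.19 ± 0.05, adjusted p = 0.00614).

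Cell type markers also moved in these lines. In Tbc1d8, Sncg (0.45) and Htr3a (0.18) were higher and Lamp5 (-0.12) lower among 9 markers of interneurons from the caudal ganglionic eminence, whose score was 4.17 (4.09 to 4.28) against 4.03 (3.42 to 4.26) in the 10 lines. No oligodendrocyte marker was called, with a score of 7.38 in Tbc1d8, 7.36 in Gsg1l and 7.51 in the 10 lines. In Gsg1l, Htr3a was higher (0.22) and Lamp5 lower (-0.15). With the 4 tissue scores as covariates, 3 of the 73 pathway genes were called in Tbc1d8, against 7 without them.

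Between the sexes, 4 of the 73 pathway genes were called, where 8.57% of all genes were, so the count is no result about the pathway. Higher in females were Oas2 (an oligoadenylate synthetase, log2 difference 0.33 ± 0.09, adjusted p = 0.00869 in edgeR's quasi-likelihood test), Ifit1 (an interferon-induced RNA binding protein, 0.19 ± 0.05, adjusted p = 0.015) and Gria4 (an AMPA receptor subunit whose transcript is edited, 0.05 ± 0.01, adjusted p = 0.00341). Nova1, a neuronal splicing factor, was lower in females (-0.06 ± 0.02, adjusted p = 0.0306).

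The tested genes nearest to Adar were not called. Within 1 Mb of Adar, 67 of 112 annotated genes were tested, and in Tbc1d8 5 were higher and 4 lower than in the other 12 lines by edgeR's quasi-likelihood test, near the share of all genes (5.66% higher, 6.79% lower). In Gsg1l 6 of the 67 were higher and 2 lower, where 4.86% of all genes were higher and 5.58% lower. Ilf2, counted above among the cofactors, was among the 4 lower in Tbc1d8. The nearest on either side were Kcnn3 (a calcium-activated potassium channel, log2 difference 0.06, adjusted p = 0.542) and Chrnb2 (a nicotinic receptor subunit whose annotated span overlaps the end of Adar, 0.03, adjusted p = 0.370), with values for Tbc1d8. Called neighbours included the ribosomal protein gene Rps27 (0.36 in Tbc1d8 and 0.47 in Gsg1l), for which reads may be split with processed copies, the transcriptional repressor subunit Gatad2b (-0.13 and -0.11) and the nuclear RNA export factor Chtop (-0.10 and -0.11). Around Adarb1, 27 of 92 genes were tested, 3 were higher and 2 lower in Tbc1d8 (12.4% of all genes were called), among them the collagen VI genes Col6a2 (0.33 in Tbc1d8, 0.31 in Gsg1l) and Col6a1 (0.28 in both). Around Adarb2, whose own level did not stand apart, 3 of the 6 tested neighbours were lower in Tbc1d8 and in Gsg1l, where 6.79% and 5.58% of all genes were lower. They were Larp4b (-0.17 ± 0.02 and -0.15 ± 0.02), Gtpbp4 (-0.17 ± 0.03 and -0.12 ± 0.03) and Zmynd11 (-0.06 and -0.07). No tested neighbour of the 3 genes was called in Dach1.

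Plates were compared with line and sex as terms. Adar was -0.04 ± 0.02 on plate 2 relative to plate 1 on the log2 scale, Adarb1 -0.05 ± 0.02 and Adarb2 0.04 ± 0.06 (adjusted p = 0.368, 0.256 and 0.822 in edgeR's quasi-likelihood test, in which 0.242% of all genes were called). Plate 2 held 8 libraries against 96.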

How the data were processed

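Cortex RNA was extracted with RNeasy kits and sequenced as stranded TruSeq libraries, per the labels' protocols. GRCm38 and mm10, with HTSeq 0.10.0 and STAR 2.7.3a, are listed in the submitters' processing notes, and the strand setting and filters are not given in the sources used here. The authors deposited raw read counts per gene and FPKM, fragments scaled by gene length and depth, each for RefSeq and Ensembl genes. The last, incomplete row of the Ensembl counts was dropped (19563 genes used). Lines came from the label tagged batch.

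RefSeq counts were fitted with edgeR 4.0.16 (quasi-likelihood, TMM, filterByExpr by line and sex) in R 4.3.3, with line and sex as terms, in all libraries. Each of 3 lines was compared with the mean of the other 12. Benjamini-Hochberg adjusted p under 0.05 over all 15723 genes was called. CPM were logged with a prior count of 2. Standard errors are the log2 difference divided by the square root of F. Relations used Python 3.11.15 and scipy 1.17.1. The procedure was tested on simulated data. Promoters are RefSeq, GRCm38.p6. Mice are separate libraries, and p-values treat them as independent.

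The members, lists and tests were chosen with earlier results of these data known. Named were the 3 genes, for each the genes most and least like it (5 and 3 over line means, 5 within lines, average log2 CPM from 3), up to 4 called genes per pathway list and comparison with the largest difference (others called are named where few), called neighbours within 1 Mb, and Nnt and Gabra2 where a library was checked against its line. Atf4 fell outside these rules and was picked after its values were seen. Alternatives covered scaling, DESeq2 1.42.0, filters, the Ensembl counts, FPKM with limma 3.58.1, plates, covariates and leaving out libraries or lines. Some list members are not reported here, and the counts over the lists include them.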

Additional observations from a re-analysis of the deposited data

Results flagged for a closer look

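Adar in Gsg1l female replicate 14, at 294.784 CPM, lay far from the other 7 libraries of its line, the nearest of which had 267.4 CPM. The gap was 0.558 of the whole range of the line. Since the gene and the line were chosen by these values, this is a description and no test. It was the 1 library marked for such a gap among 39 groups of a gene and a line, where chance marks about 1 in 20.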

How the results depend on the processing

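No alternative changed the side of the threshold of a sex, interaction or plate result, or moved a line level by more than 1 SD. The Adarb1 sex difference was 0.04 to 0.06 on the log2 scale over 25 alternatives (edgeR, DESeq2 or limma adjusted p 9.35e-05 to 0.0103). Leaving out each library in turn, the Adar log2 difference was -0.29 to -0.27 in Tbc1d8, -0.24 to -0.20 in Gsg1l and -0.06 to -0.01 in Dach1. Pathway genes called in Gsg1l then numbered 5 to 10, with 5 without Gsg1l female 13, and in Tbc1d8 5 to 8. Their number in Tbc1d8 was 4 within plate 1 and 3 with marker scores as covariates. Between the sexes it was 2 with at least 10 reads in all libraries and 7 without the line Ece2, Gsg1l or Rgs9. Within the 10 lines the relation of Adar and Adarb1 turned to r = 0.0633, and that of Adar and Adarb2 rose to 0.50. The causes were not tested.

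Females and males of a line share the replicate number of their titles. Over 52 such pairs the correlation of deviations from the group means across genes had a median of 0.02, 8 pairs were over 0.1, and 18 of 52 females were closest to the male of their own number, so the number was not taken as a pairing. With the replicate block the sex difference was 0.0526 for Adarb1 (edgeR adjusted p = 0.000471), -0.0105 for Adar (0.584) and -0.0697 for Adarb2 (0.130), and no call changed. Depth limits Adarb2 most, with as few as 82 reads in a library.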
